A study of Mus musculus with 4 samples.

Results

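The 284 exons described here were new internal exons that the transcript assemblies of N2A cells held when Ptbp1 was depleted, alone or together with Ptbp2. N2A is a mouse neuroblastoma line. An exon was taken when it was neither first nor last in an assembled transcript of 3 or more exons with an FPKM (fragments scaled by transcript length and library size) above 0 and was at most 300 nt long. It had to have the same ends in the double knockdown and the Ptbp1 knockdown, to be absent from the assemblies of the Ptbp2 knockdown and the control, and to overlap no exon of the fixed list of exon trios that SpliceTrap measured in every library. The exons were therefore selected on measured values, and their absence from control and from the Ptbp2 knockdown is not a result. They were 284 of 5659 exons that met the other criteria in at least 1 of the 4 libraries and were internal in every library that held them.

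The double knockdown library came from cells transfected with shRNAs against Ptbp1 and Ptbp2, the single knockdown libraries from cells given an shRNA against Ptbp1 or against Ptbp2, and the control from cells given a control shRNA. All cells were transfected for 5 h, cultured for 3 days and sequenced strand-specifically as pairs of 100 bp reads from poly(A) RNA. Each group held 1 library, so no difference below has a replicate check and none was tested across samples. N2A is a single transformed line, and the knockdowns were transient and left some of both messages.

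Ptbp1 and Ptbp2 are polypyrimidine tract-binding proteins. They bind pyrimidine-rich RNA, often in introns beside an exon, and most often keep the spliceosome from using that exon. Ptbp1 is made in most dividing cells and Ptbp2 mainly in neurons, where Ptbp1 is switched off. An exon that is skipped in most cells may be missing from a gene annotation, and when it is used it can add amino acids to a protein, or bring in a stop codon and send the message to nonsense-mediated decay.

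The knockdowns were seen in the reads on the exon list, given as CPM (reads per M reads), scaled by the median of ratios. Ptbp1 stood at 151 in the double knockdown, 198 in the Ptbp1 knockdown, 765 with Ptbp2 knocked down and 671 in control. Ptbp2 stood at 40.3, 190, 24.8 and 94.9 in the same libraries, so it was above control in the Ptbp1 knockdown and below control in the double knockdown. Reads summed over the exon list came to between 217 and 269 M per library and junction reads to between 55.7 and 71.1 M, with the Ptbp1 knockdown the lowest in both. Of 9 markers of noradrenergic neuroblasts 7 were measured, with a sum of 482, 589, 618 and 445 CPM in the 4 libraries. Dbh alone stood at 49.2, 177, 17.3 and 46.5 CPM in the same order. Dbh, Th and Gata3 were at least 1.5-fold above control in the Ptbp1 knockdown, and only Gata3 in the double knockdown. In the Ptbp2 knockdown Th and Dbh were at least 1.5-fold below control, and Gata2 and Gata3 above it. Th stood at 3.19 CPM or less in every library. Of 4 haematopoietic markers 0 reached the read minimum. All 4 fibroblast and smooth muscle markers did. Their sum was 3.03 CPM in the double knockdown, 7.66 in the Ptbp1 knockdown, 2.50 with Ptbp2 knocked down and 4.03 in control. Col1a1 and Col1a2 were at least 1.5-fold above control in the double and Ptbp1 knockdowns. Pdgfra was above it in the Ptbp1 knockdown and below it in the double and Ptbp2 knockdowns. Acta2 went the other way, at least 1.5-fold below control in the Ptbp1 knockdown and above it in the Ptbp2 knockdown. Col1a1, Col1a2 and Acta2 stood at 0.748 CPM or less in every library, and Pdgfra at 1.63 to 6.73. Measured markers of endothelium (1 of 3) summed to 3.25 to 4.21 CPM, of glia (2 of 4) to 0.862 to 1.27 and of epithelium (1 of 3) to 0.0497 to 0.186. The part of these cell types in the results was not tested.

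Position divided the exons. Of the 284, 81 lay between splice sites of 1 RefSeq gene on both sides, in 77 genes, 4 of which held 2 such exons. A further 27 were joined to a RefSeq splice site on 1 side, 2 lay between sites of different genes, and 174 lay in transcripts without a RefSeq splice site beside them. Of those 174, 156 were outside RefSeq genes and 17 were antisense to one. "Candidate cryptic exon" describes at most the 81; for 117 of the other 203 no assembled transcript of the control crossed the place. Of the 81, all had control transcripts across the place, and 78 had both neighbouring splice sites in the control assembly. The 284 exons fell into 224 loci, and exons of 1 locus share transcripts.

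**Figure D1:**
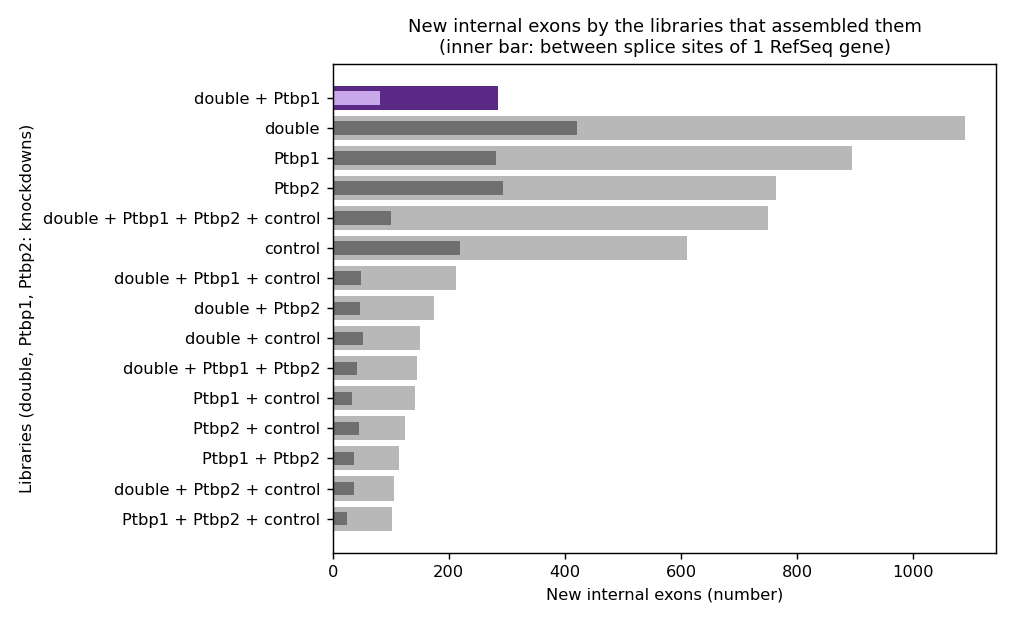
Number of new internal exons (x axis) for each set of libraries that assembled them (y axis), with an inner bar for those between splice sites of 1 RefSeq gene. The 284 exons of the double and Ptbp1 knockdowns outnumber those of every other pair of libraries, 114 to 174, and 81 of them lie between sites of 1 gene.

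The other pairs of libraries give the scale of this count. New exons in the double and Ptbp2 knockdowns alone numbered 174, in the double knockdown and control 150, in the Ptbp1 knockdown and control 142, in the Ptbp2 knockdown and control 124, and in both single knockdowns 114. A further 750 were found in all 4 libraries. Exons held by only 1 library numbered 610 for control, 763 with Ptbp2 knocked down, 895 for the Ptbp1 knockdown and 1089 for the double knockdown. Each knockdown, that of Ptbp2 included, thus had more of them than control. The knockdown of Ptbp1 and the double knockdown had also yielded more assembled transcripts, 75009 and 74508, against 67222 with Ptbp2 knocked down and 64517 in control, and the part of this in the counts was not tested.

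The sequence of an exon could be read where a transcript of the later GENCODE vM21 annotation had the same exon length and the same intron lengths on both sides on the same chromosome and strand, which held for 24 of the 81 exons. The exons below were chosen after their values were seen, as examples with a high assembled level, a high inclusion or a lower skipping junction. They were taken from those with a sequence and no stop codon given by the matching transcript. For Smap1 that transcript has no coding sequence, so its exon was not checked for a stop codon. They are written from 5′ to 3′ on the strand of the gene, with each TCTT, the DNA form of a tetramer bound by PTB proteins, in capitals. Coordinates are those of the files, on mm9. The exons are Smap1 at chr1:23878277-23878357 on the minus strand, Agfg1 at chr1:82877322-82877393 on the plus strand, Fermt2 at chr14:46096093-46096125 on the minus strand, Actn4 at chr7:29680140-29680205 on the minus strand, Shf at chr2:122181211-122181351 on the minus strand, Atg13 at chr2:91522183-91522293 on the minus strand, Ralgapa2 at chr2:146244098-146244238 on the minus strand and Tmem245 at chr4:56935259-56935282 on the minus strand.
Smap1: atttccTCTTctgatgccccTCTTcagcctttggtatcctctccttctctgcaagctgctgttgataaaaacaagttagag
Agfg1: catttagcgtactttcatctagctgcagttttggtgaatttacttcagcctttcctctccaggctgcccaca
Fermt2: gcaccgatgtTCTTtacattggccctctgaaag
Actn4: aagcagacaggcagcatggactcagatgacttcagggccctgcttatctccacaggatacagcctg
Shf: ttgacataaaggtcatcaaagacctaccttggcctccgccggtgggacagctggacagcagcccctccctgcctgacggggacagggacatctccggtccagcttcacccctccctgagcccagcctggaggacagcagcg
Atg13: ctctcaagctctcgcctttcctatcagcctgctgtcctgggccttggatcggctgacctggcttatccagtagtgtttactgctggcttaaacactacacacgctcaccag
Ralgapa2: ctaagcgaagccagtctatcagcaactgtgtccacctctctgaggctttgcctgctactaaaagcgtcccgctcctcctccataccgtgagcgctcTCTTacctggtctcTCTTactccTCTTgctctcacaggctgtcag
Tmem245: ctctggcactggctaaataagaag

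Of the 68 exons of all positions with a sequence, 25 held a TCTT on the transcribed strand, 36.8%, against a mean of 34.9% among internal GENCODE exons of the same lengths. The share was close to that of other exons. The letters describe the exon itself. The introns beside it, where PTB proteins are known to bind, were not read.

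Another group of exons carries a stop codon. The 4 sequences below run from the first base of the exon to the stop codon of the matching GENCODE transcript, shown in capitals, and each such transcript is annotated as a target of nonsense-mediated decay. Ahctf1 encodes the nucleoporin ELYS, Nf2 the tumour suppressor merlin, Rsf1 a subunit of a chromatin remodelling complex and Xpo6 the nuclear export receptor of actin. The exons lie at chr1:181684622-181684755, chr11:4708699-4708837, chr7:104812088-104812120 and chr7:133246593-133246704 on mm9.
Ahctf1: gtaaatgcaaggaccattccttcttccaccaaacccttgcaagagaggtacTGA
Nf2: aaatggcagtgtTGA
Rsf1: gcaatgctgcatTGA
Xpo6: atggccTAG

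Among the 24 matched exons of RefSeq genes, 13 were coding in the GENCODE transcript, 4 were coding up to such a stop, 2 were untranslated and 5 lay in transcripts without a coding sequence. Of the 13 coding exons 12 had a length that is a multiple of 3. Of all 284 exons 68, or 23.9% (exact 95% interval 19.1 to 29.3), matched GENCODE, against 18 of 124 (14.5%, 8.84 to 22.0) of the exons of the control and Ptbp2 knockdown and 383 of 750 (51.1%, 47.4 to 54.7) of those in all 4 libraries. Looked up on another chromosome, 0 of the 284 matched. These intervals cover counting error only. They treat exons as independent, although exons of 1 locus share transcripts. Of the 68 matches, 7 were at the Fer1l6 locus, 6 at Stard9, 5 at Rsph10b and 3 at Hmcn2.

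Exon length also differed with position. The 81 exons between sites of a RefSeq gene had a median of 84 nt, and 44 of them, 54.3% (exact 95% interval 42.9 to 65.4), were a multiple of 3 long. The other 203 had a median of 115 nt and 67 multiples of 3, 33.0% (26.6 to 39.9), and the middle exons of the trio list had a median of 120 nt and 39.9% (39.6 to 40.1). Again the intervals treat exons as independent, while the 203 lay in 147 loci. Of the 81, 7 were microexons of at most 27 nt, against 1 of the 203. The longest exons within the length limit were 285 nt, and the shortest that met every other criterion but exceeded it were 304 nt. The shortest of all was 3 nt, in Cyth1, which encodes an exchange factor for Arf GTPases.

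The level of an exon is given as the summed FPKM of the transcripts that hold it, rescaled so that each library has the same assembled mass, with the Cufflinks 95% interval. By the rule it was 0 with Ptbp2 knocked down and in control. The 81 exons of RefSeq genes had a median of 1.69 in the double knockdown and 1.46 in the Ptbp1 knockdown, and 45 of them reached 1 in both. The other 203 had medians of 0.26 and 0.34, and 22 of them reached 1 in both. The lowest level of any exon was 0.043 in the double knockdown and 0.061 in the Ptbp1 knockdown.

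The 15 highest exons among the 81, by the lower of both levels, included 3 in genes of actin crosslinking and adhesion. The 66 nt exon of Actn4, which encodes the actin crosslinker alpha-actinin 4, was at 21.04 (20.2 to 21.8) in the double knockdown and 7.66 (6.85 to 8.47) in the Ptbp1 knockdown. Fermt2, the gene of the integrin activator kindlin-2, held a pair of new exons in different introns. Its 33 nt exon was at 10.9 (10.0 to 11.8) in the double knockdown and 8.61 (6.26 to 11.0) in the Ptbp1 knockdown, and its 21 nt exon was at 17.4 (16.4 to 18.5) and 5.64 (4.70 to 6.58). For Actn4 and the 21 nt Fermt2 exon the intervals of the knockdowns were apart, with the double knockdown higher, and for the 33 nt exon they overlapped.

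Also among the 15 were exons of Smap1 and Agfg1. Smap1, an Arf GTPase-activating protein of endocytosis, had its 81 nt exon at 27.9 (26.7 to 29.2) in the double knockdown, the highest level among the 81 exons in that library, and at 6.14 (5.53 to 6.75) in the Ptbp1 knockdown. Agfg1, a related Arf GAP domain protein, had its 72 nt exon at 10.9 (10.5 to 11.4) and 5.45 (4.98 to 5.92). In both genes the double knockdown was the higher, with intervals apart.

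The rest of the 15 were in genes of various roles. Shf, an SH2-domain adaptor, had its 141 nt exon at 13.9 (11.9 to 16.0) in the double knockdown and 10.7 (9.20 to 12.1) in the Ptbp1 knockdown, the highest level in the Ptbp1 knockdown among the 81. Nufip2, a partner of the RNA-binding protein FMRP, had its 45 nt exon at 15.5 (14.7 to 16.2) and 7.56 (6.26 to 8.85). Gxylt1, a xylosyltransferase that modifies Notch, was one that was lower in the double knockdown, at 7.45 (6.44 to 8.47) against 9.42 (7.95 to 10.9) in the Ptbp1 knockdown, with overlapping intervals. The 139 nt stop-codon exon of Nf2 was at 4.14 in the double knockdown and 5.49 in the Ptbp1 knockdown, and that of Ahctf1 at 6.61 and 4.20. Dnajc7, a co-chaperone, Chtop, an mRNA export factor, Med14, a Mediator subunit, Arih2, a ubiquitin ligase, and Kif15, a mitotic kinesin, held exons at 3.52 to 7.37 in the double knockdown and 3.10 to 5.84 in the Ptbp1 knockdown.

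Assembled inclusion is the level of the transcripts with the exon as a percentage of all transcripts of that strand that cross its place in the same library. Its median over the 81 exons was 19.8% in the double knockdown and 16.7% in the Ptbp1 knockdown, with 9 and 1 exons at 50% or more. Over the other 203 it was 82.3% and 100%. Smap1 stood at 68.2% in the double knockdown and 15.2% in the Ptbp1 knockdown. Actn4 stood at 46.0% and 23.9%, Nufip2 at 55.4% and 25.2%, Arih2 at 60.6% and 31.6%, Otud7b, a deubiquitinase, at 40.3% and 26.3%, and Gxylt1 at 100% and 44.2%. In these 6 the double knockdown was the higher. Junction reads, described below, still counted 69 that skipped the Gxylt1 exon in the double knockdown, 81 in the Ptbp1 knockdown, 58 with Ptbp2 knocked down and 69 in control, so the 100% is a share of assembled transcripts only.

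Others were alike in both libraries or lower in the double knockdown. The 24 nt exon of Tmem245, a membrane protein, had the highest inclusion in the Ptbp1 knockdown among the 81, with 54.6% in the double knockdown and 64.9% in the Ptbp1 knockdown. Lca5, a ciliary protein gene, stood at 43.6% and 44.3%, Cask, a synaptic scaffold kinase, at 35.9% and 37.0%, and Kif15 at 30.2% and 30.6%. Ralgapa2, a subunit of the Ral GTPase-activating complex, stood at 26.3% in the double knockdown and 44.8% in the Ptbp1 knockdown. Creb1, the cAMP-responsive transcription factor, at 18.7% and 24.6%, and Cyth1 at 23.01% and 25.3%. Inclusion carries no interval, since the assembly gives none for it.

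**Figure D2:**
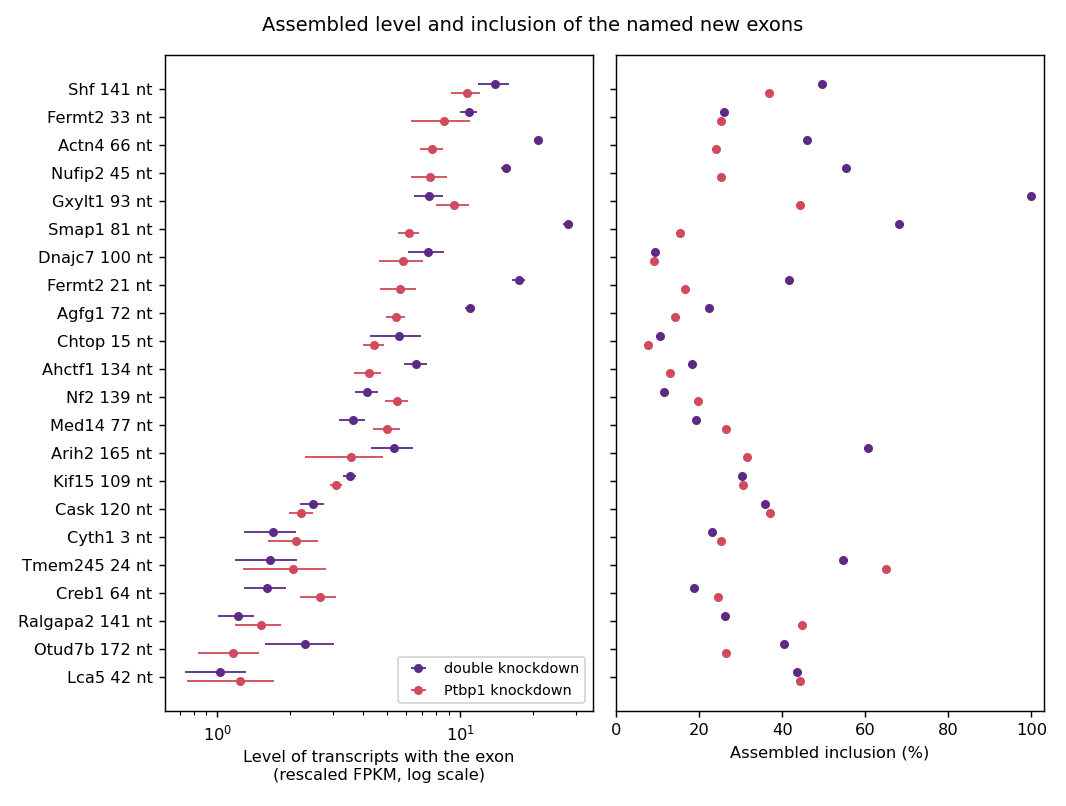
Level of transcripts with the exon (left, rescaled FPKM on a log axis, bars the Cufflinks 95% interval) and assembled inclusion in percent (right) of the named exons in the double knockdown (purple) and the Ptbp1 knockdown (red), ordered by the lower of both levels. Smap1, Actn4, Nufip2 and the 21 nt exon of Fermt2 stand higher in the double knockdown on both scales, while Nf2, Med14 and Creb1 stand lower.

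Between the libraries that chose them, the exons went both ways. Of the 81, 27 had a higher level in the double knockdown than in the Ptbp1 knockdown with intervals apart and 14 a lower one. Among all internal exons of at most 300 nt assembled in both libraries, 21.9% were higher and 22.3% lower by that criterion. Of the other 203 exons 18 were higher and 44 lower. Assembled inclusion was higher in the double knockdown for 47 of the 81 and lower for 34.

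Reads on the junction that skips a new exon are counted in all 4 libraries whether or not the exon was assembled. They were taken from the trio list for the intron in which the exon lies and set against reads on a neighbouring junction of the same gene, as a log2 ratio with 0.5 reads added to each. A junction was measured when both means over the libraries were at least 20 reads, and called lower or higher at a 1.5-fold difference of the ratio. Of the 284 exons 84 had such a junction on the list and 76 were measured, on 75 junctions; 72 of the 76 were among the 81 exons of RefSeq genes. The same libraries had chosen the exons, so the differences from control are a description and were not tested. Other splicing events in the same intron were not separated from the new exon.

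In the double knockdown the skipping junction was at least 1.5-fold lower than in control for 21 of the 76 exons, where 3.08% of all 109821 measured junctions were, and higher for 1, where 3.09% were. In the Ptbp1 knockdown it was lower for 9, with 2.72% of all junctions, and higher for 3, with 3.46%. All 9 were among the 21. In the Ptbp2 knockdown it was lower for 3, with 2.96% of all junctions, and higher for 8, with 4.01%. The median log2 difference over the 76 was −0.17 in the double knockdown, −0.20 in the Ptbp1 knockdown and 0.06 in the Ptbp2 knockdown, beside 0.00, 0.02 and 0.01 over all junctions. These comparisons share the control library.

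**Figure D3:**
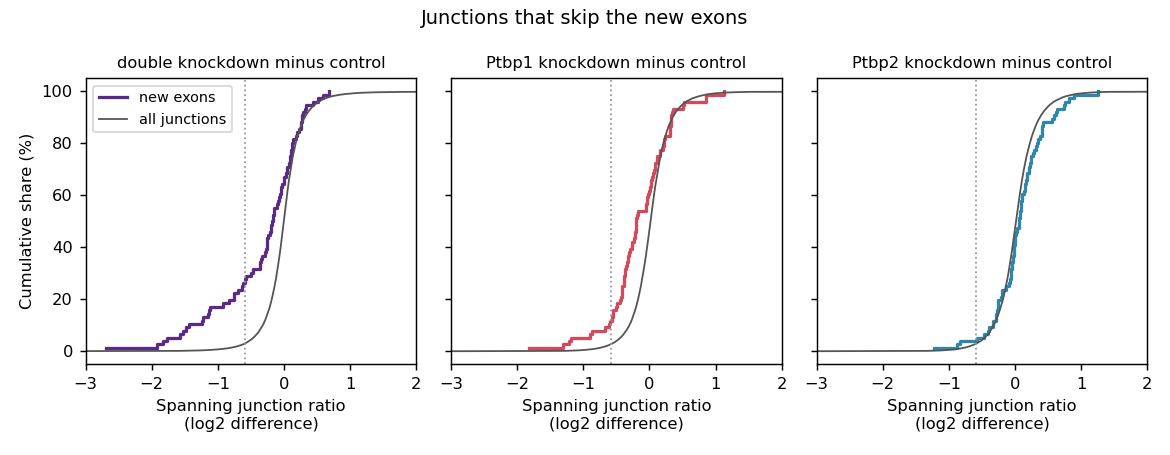
Cumulative share (y axis, %) of skipping junctions by the log2 difference of their ratio from control (x axis), for the 76 measured new exons (coloured) and all 109821 junctions (grey), in the double, Ptbp1 and Ptbp2 knockdowns; the dotted line marks a 1.5-fold lower ratio. The new exons lie left of all junctions in the double knockdown, where 21 pass the line, and in the Ptbp1 knockdown, where 9 do.

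Other sets of new exons were measured the same way. Among 39 measured exons assembled in control and the Ptbp2 knockdown only, 2 were lower in the double knockdown and 1 in each single knockdown. Among 77 measured exons assembled in all 4 libraries, 13 were lower in the double knockdown, 9 in the Ptbp1 knockdown and 7 in the Ptbp2 knockdown. The difference between sets was not tested.

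The exons with the largest fall in both Ptbp1-depleted libraries span several roles. Smap1 had 54 skipping and 602 neighbouring reads in the double knockdown, 71 and 484 in the Ptbp1 knockdown, 181 and 500 with Ptbp2 knocked down and 195 and 569 in control. Skipping reads were thus 8.23% (exact 95% interval 6.24 to 10.6) of the pair in the double knockdown, 12.8% (10.1 to 15.9) in the Ptbp1 knockdown, 26.6% (23.3 to 30.1) with Ptbp2 knocked down and 25.5% (22.5 to 28.8) in control. The intervals of both Ptbp1-depleted libraries lay below those of the others, and the ratio fell by 1.92 and 1.22 on the log2 scale against control.

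Ralgapa2 had 18 skipping and 82 neighbouring reads in the double knockdown, 10 and 55 in the Ptbp1 knockdown, 42 and 41 with Ptbp2 knocked down and 48 and 72 in control. Its ratio fell by 1.58 in the double knockdown and 1.82 in the Ptbp1 knockdown, the largest fall in the Ptbp1 knockdown, while the Ptbp2 knockdown differed by 0.61. Tmem245 had 21 skipping and 62 neighbouring reads, 12 and 47, 30 and 48, and 39 and 60 in the same libraries, with falls of 0.92 and 1.31. Sec16b, a protein of endoplasmic reticulum exit sites, had falls of 0.69 and 1.19. Among the 10 with the largest fall in both, these 3 and Lca5 had a lower ratio in the Ptbp1 knockdown than in the double knockdown.

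Atg13, a subunit of the kinase complex that starts autophagy, had 34 skipping and 236 neighbouring reads in the double knockdown, 80 and 156 in the Ptbp1 knockdown, 106 and 137 with Ptbp2 knocked down and 111 and 118 in control. Its share was 12.6% (8.88 to 17.2) in the double knockdown, 33.9% (27.9 to 40.3) in the Ptbp1 knockdown, 43.6% (37.3 to 50.1) with Ptbp2 knocked down and 48.5% (41.8 to 55.1) in control, so the interval of the double knockdown lay below all others and that of the Ptbp1 knockdown below control. Its fall of 2.69 in the double knockdown was the largest of the 76 exons, and it fell by 0.87 in the Ptbp1 knockdown.

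Scn2a, a neuronal sodium channel gene, had 16 skipping and 62 neighbouring reads in the double knockdown, 35 and 73 in the Ptbp1 knockdown, 10 and 21 with Ptbp2 knocked down and 34 and 38 in control. It fell by 1.76 in the double knockdown, 0.89 in the Ptbp1 knockdown and 0.88 in the Ptbp2 knockdown, so it was lower in all 3 knockdowns, on few reads. Galnt12, which starts mucin-type O-glycans, fell by 1.13 and 0.60, and Dennd4c, an exchange factor for Rab10, by 0.83 and 0.62. Lca5 differed by −0.47 and −0.51, short of the 1.5-fold call in both.

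The 12 exons that passed the call in the double knockdown and not in the Ptbp1 knockdown included the best counted ones. The 21 nt exon of Fermt2 had 416 skipping and 1171 neighbouring reads in the double knockdown, 662 and 815 in the Ptbp1 knockdown, 1123 and 1342 with Ptbp2 knocked down and 1183 and 1411 in control. Its share was 26.2% (24.1 to 28.5) in the double knockdown, while the other libraries lay between 44.8% and 45.6%. Agfg1 had 534 and 1053, 630 and 651, 1310 and 1096, and 1321 and 1177 reads in the same order of libraries, with a share of 33.6% (31.3 to 36.0) in the double knockdown, 49.2% (46.4 to 52.0) in the Ptbp1 knockdown, 54.4% (52.4 to 56.5) with Ptbp2 knocked down and 52.9% (50.9 to 54.9) in control. For both exons the double knockdown stood apart from the other libraries.

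Shf had a share of 6.22% (4.82 to 7.87) in the double knockdown, 12.5% (10.5 to 14.7) in the Ptbp1 knockdown, 17.98% (15.4 to 20.8) with Ptbp2 knocked down and 15.7% (13.3 to 18.4) in control. The others of this group were Mms22l (239 nt exon), of replication fork repair, Lima1, an actin-binding protein, Ttc37, of the RNA-degrading Ski complex, Kif1c, a kinesin, Otud7b, Zfp704, C2cd2, the 33 nt exon of Fermt2 and Flna, which encodes the actin crosslinker filamin A. They fell by 1.53 in Mms22l to 0.59 in Flna in the double knockdown. The exon just short of the call was that of Dgkh, with a difference of −0.58, and Flna was the one just within it.

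**Figure D4:**
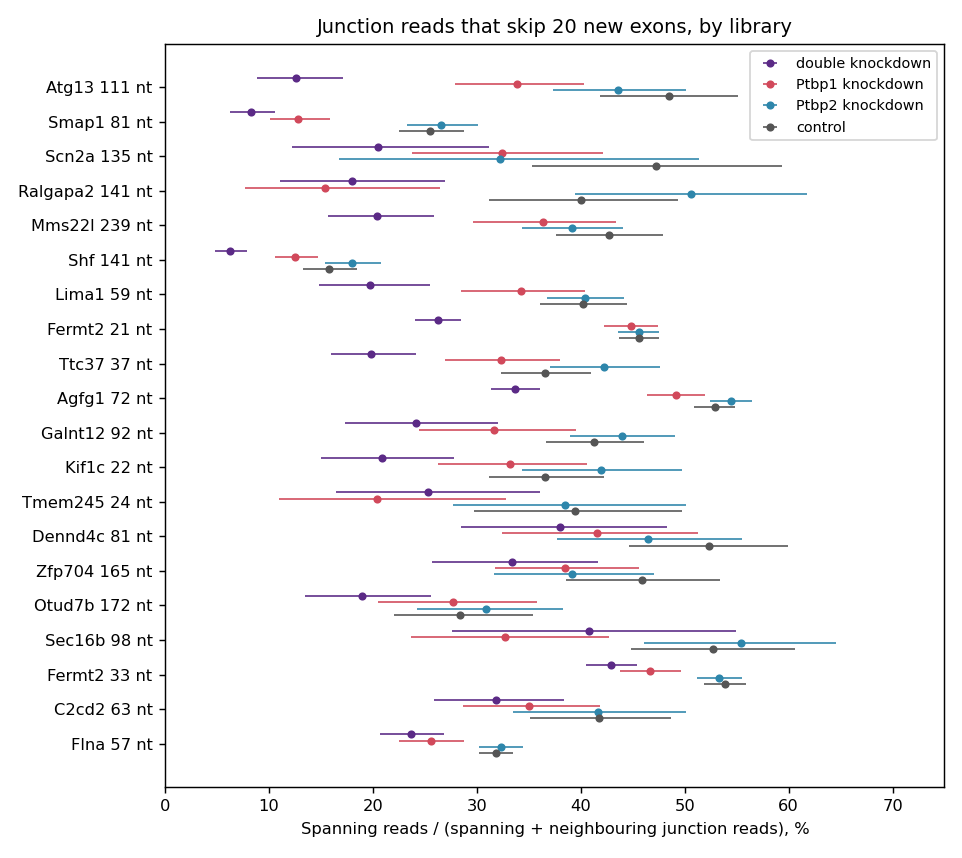
Skipping reads as a percentage of skipping and neighbouring junction reads (x axis, bars the exact 95% interval) for 20 of the 21 exons with a ratio at least 1.5-fold lower in the double knockdown than in control (y axis, ordered by that difference), in the double (purple), Ptbp1 (red) and Ptbp2 (blue) knockdowns and control (grey). The double knockdown lies lowest for most, with Ralgapa2, Tmem245 and Sec16b lowest in the Ptbp1 knockdown.

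Set directly against the Ptbp1 knockdown, the double knockdown had a skipping ratio at least 1.5-fold lower for 13 of the 76 exons, where 3.24% of all junctions were lower, and higher for 0, where 2.49% were. The 13 included those of Atg13, Fermt2 (21 nt), Mms22l (239 nt), Shf, Lima1, Ttc37, Agfg1, Kif1c, Scn2a, Smap1, Otud7b and Apc. Atg13 had the largest difference, −1.82 on the log2 scale. All 13 but Apc had also fallen against control in the double knockdown.

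The 5 exons whose ratio was most above control in both Ptbp1-depleted libraries went against their assembly there. Zdhhc15, a palmitoyltransferase gene, had 36 skipping and 59 neighbouring reads in the double knockdown, 41 and 49 in the Ptbp1 knockdown, 34 and 48 with Ptbp2 knocked down and 30 and 79 in control, with log2 differences of 0.68, 1.13 and 0.89. Uevld, which carries a ubiquitin-conjugating-like domain, differed by 0.44, 0.86 and 0.63, and Cyth1 by 0.51, 0.52 and 1.26. Kif13a, a kinesin, differed by 0.58, 0.34 and 0.10, and Csgalnact2, a chondroitin sulfate enzyme, by 0.31, 0.31 and 0.40. For 4 of the 5 the Ptbp2 knockdown, in which the exon was not assembled, was above control by as much as 1 of the others or more.

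Exons with high assembled levels did not all show a lower skipping junction. Dnajc7 had 2677 skipping and 3257 neighbouring reads in the double knockdown, 1760 and 2203 in the Ptbp1 knockdown, 2497 and 3075 with Ptbp2 knocked down and 2406 and 2929 in control, with log2 differences of 0.00, −0.04 and −0.02. Its assembled inclusion was 9.31% in the double knockdown and 8.98% in the Ptbp1 knockdown. The stop-codon exons were all within 1.5-fold of control in both Ptbp1-depleted libraries, with differences of −0.03 and 0.09 for Nf2, −0.28 and −0.01 for Ahctf1, 0.08 and 0.16 for Xpo6, and 0.34 and 0.31 for Rsf1 in the double and Ptbp1 knockdowns. The exon of Creb1 differed by 0.12 and 0.08, that of Nufip2 by −0.26 and 0.02, that of Gxylt1 by −0.28 and 0.22 and that of Arih2 by 0.26 and 0.09. Actn4 had no measured skipping junction on the list.

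Reads of the host genes were compared over the exon list. Of the 77 genes 75 had a mean of at least 20 reads. In the double knockdown 12 were at least 1.5-fold below control, with 6.79% of all 12249 genes measured, and 3 above, with 8.74%. In the Ptbp1 knockdown 9 were below, with 4.31% of all genes, and 5 above, with 13.6%. In the Ptbp2 knockdown 6 were below, with 8.67% of all genes, and 1 above, with 5.76%. Medians over the 75 genes were −0.09, −0.13 and −0.07 on the log2 scale.

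The lower genes included Flna, Actn4 and Lima1, whose proteins bind actin. Flna had 342 CPM in the double knockdown, 412 in the Ptbp1 knockdown, 1005 with Ptbp2 knocked down and 1390.1 in control, falls of 2.02 and 1.75 in the Ptbp1-depleted libraries. Actn4 had 186, 159, 306 and 291, and Lima1 had 29.6, 31.6, 90.0 and 61.4, in the same order. Fermt2 had 142, 120, 178 and 197, which passed the call in the Ptbp1 knockdown alone. Galnt12 had 9.60, 11.3, 21.8 and 22.6, and Pgm2, a sugar phosphomutase, 12.1, 20.2, 34.8 and 43.3. Tanc2, a postsynaptic scaffold, was above control in the double knockdown, with 229, against 156 in the Ptbp1 knockdown, 198 with Ptbp2 knocked down and 112 in control. Snph, which anchors axonal mitochondria, had 11.5, 13.2, 7.31 and 6.96.

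Ptbp3, the third PTB paralog, had 80.3 CPM in the double knockdown, 81.3 in the Ptbp1 knockdown, 90.3 with Ptbp2 knocked down and 150.2 in control, below control by more than 1.5-fold in each. Another list held 15 RNA-binding proteins, mainly repressors of unannotated exons, with U2af1 and U2af2, which are not such repressors, among them. Of these 15, all measured, 0 were called in the double knockdown and 1 in the Ptbp1 knockdown, Elavl1, which was lower by 0.60. Their median log2 difference was −0.26 in the double knockdown, with 14 of 15 below control, −0.36 in the Ptbp1 knockdown, with 15 below, and 0.01 in the Ptbp2 knockdown, with 7 below. Medians over all genes were 0.003, −0.002 and 0.010 in the same order. Of 14 genes of nonsense-mediated decay 13 were measured and 0 were called in any knockdown. Of 21 neuronal splicing regulators 16 were measured: Mbnl1 was lower in the double knockdown and in the Ptbp2 knockdown, with log2 differences of −1.02 and −1.15, and in the Ptbp1 knockdown Elavl2, Celf1 and Qk were lower and Celf5 higher. A list of 29 genes known for PTB-controlled exons had 28 measured members. Of these 2 were lower and 1 higher in the double knockdown and 3 lower and 2 higher in the Ptbp1 knockdown. With Ptbp2 knocked down 3 were lower and 0 higher. Over all 12249 genes, 6.79% were lower and 8.74% higher in the double knockdown. The shares were 4.31% and 13.6% in the Ptbp1 knockdown and 8.67% and 5.76% in the Ptbp2 knockdown. Actn4 was the only gene of these lists that held one of the 284 exons.

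The 203 other exons were largely parts of transcripts at low level. The largest group was 11 exons at the Fer1l6 locus of the ferlin family, without a RefSeq splice site beside them, between chr15:58350619 and chr15:58461007 on mm9, with 7 of the 11 matching GENCODE. Their levels ran from 0.10 to 0.31 in the double knockdown and from 0.086 to 0.64 in the Ptbp1 knockdown. Stard9, a mitotic kinesin, held 9 at 0.16 to 0.33 and 0.14 to 0.81. Rsph10b, a radial spoke protein of cilia, held 6, all at 0.23 and 0.49. Hmcn2, an extracellular matrix protein, held 3 at 0.26 to 0.29 and 0.33 to 0.58. Sema4d, a semaphorin, held 3 at 2.47 and 1.88, and no control transcript crossed them.

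The highest levels of all 284 were in this group. A 199 nt exon was joined to Scg2, the gene of the granule protein secretogranin II. The exon was at 48.8 in the double knockdown and 56.8 in the Ptbp1 knockdown. No assembled control transcript crossed it, but an exon with other ends overlapped it in the control or Ptbp2 knockdown assembly. An exon between sites of Adnp and Dpm1 had an assembled inclusion of 73.0% in the double knockdown and 55.0% in the Ptbp1 knockdown, while the transcripts across it stood at 55.9 with Ptbp2 knocked down and 52.7 in control. Its skipping junction ratio differed from control by 0.28 in the double knockdown, 0.33 in the Ptbp1 knockdown and −0.29 in the Ptbp2 knockdown. The ratio was thus not lower with Ptbp1 depleted, and the inclusion is a share of assembled transcripts only. In all, 118 of the 284 exons overlapped an exon of the control or Ptbp2 knockdown assembly with other ends, 16 of the 81 and 102 of the 203.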

How the data were processed

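Per the submitters' processing notes, the authors processed reads with CASAVA, aligned them with TopHat to mm9 and assembled transcripts with Cufflinks; tool versions were not given in the sources used here. For each library the deposited isoform tables give FPKM with intervals and coverage as signal, and the deposited assemblies carry a score that was not used. The FPKM were not on the usual scale, so each was divided by its library's sum of FPKM times length. The deposited SpliceTrap tables give junction counts and exon signal, from which exon reads were recovered as coverage times size over 100. Host genes were named from RefSeq guide transcripts (26957 of 27657 with a symbol), and 88.1% of list exons were named. A junction listed in several trios was taken from the best counted one.

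The exons and the gene lists were chosen with earlier results of these data known. Named exons, taken from the 81 between sites of a RefSeq gene and without predicted genes, were the 15 with the highest level and the 15 with the highest inclusion (of level 1 or more) in both Ptbp1-depleted libraries, the 10 with the largest fall and 5 with the largest rise of the junction ratio in both, and any in a listed gene; Tanc2, Snph, Pgm2 and other exons beyond these were chosen after their values were seen. Some exons counted in the totals are not reported here by name. Gene reads were compared as log2(CPM + 0.1). Intervals of shares are exact Clopper-Pearson intervals. The 1-library-per-group design allows no test. Junction and gene calls were tested on simulated counts with known changes and counting error only. The simulation held no variation between cultures, so it cannot show how reliable the calls are here. Python 3.11.15, numpy 2.4.6, pandas 2.3.3, scipy 1.17.1 and matplotlib 3.10.9 were used.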

Additional observations from a re-analysis of the deposited data

How the results depend on the processing

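Each group holds 1 library. No paired analysis was possible because no group has replicates to pair. Of 44 alternatives over 12 results, 24 left the value within its interval or within 1.5 times the count. The number of exons, 284, was 166 when no exon of control or the Ptbp2 knockdown could overlap them, 67 with a rescaled FPKM of at least 1 in both Ptbp1-depleted libraries and 113 with both flanking sites in the control assembly. Median assembled inclusion over all 284, 50.9% in the double knockdown and 43.2% in the Ptbp1 knockdown, was 31.3% and 23.9% for exons at FPKM 1 or more, and 19.8% and 16.7% for the 81 of RefSeq genes, which was chosen after seeing the data. At 2-fold, the exons with a lower skipping junction numbered 13 in the double knockdown, 4 in the Ptbp1 knockdown and 1 in the Ptbp2 knockdown against control, and 6 in the double knockdown against the Ptbp1 knockdown, where 0.727%, 0.481%, 0.530% and 0.508% of all junctions were lower. With a mean of at least 50 reads, 60 exons were measured, of which 5 were lower in the Ptbp1 knockdown and 0 in the Ptbp2 knockdown, where 1.39% and 1.55% of all junctions were lower. Host genes 1.5-fold lower numbered 7 in the double knockdown and 5 in the Ptbp1 knockdown when scaled by the total, with 4.12% and 1.27% of all genes, and again 7 and 5 on gene FPKM, with 6.35% and 4.60% of all genes; total scaling raised the median of all genes by 0.13 and 0.19 on the log2 scale. The share of lengths that are a multiple of 3, 39.1% over all 284, was 56.7% at FPKM 1 or more and 49.6% with both flanking sites in control. The share matched to GENCODE was 31.7% when 1 intron length sufficed. The cause of these differences was not tested. Depth limits exons with few junction reads, such as those of Scn2a and Tmem245, and counting intervals say nothing of variation between cultures.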
